A study of Homo sapiens with 6 samples.

Results

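Cadherins are the calcium-dependent adhesion proteins of adherens junctions, and a small set of transcription factors controls which of them an epithelial cell makes. This account describes 10 such genes in HK-2, an established human cell line of proximal tubule origin. The cadherin genes are CDH1, CDH2, CDH6 and CDH11. The factors of the epithelial-mesenchymal transition (EMT) are SNAI1, SNAI2, ZEB1, ZEB2 and TWIST1, and VIM encodes the intermediate filament protein vimentin. The genes were taken from the deposited gene table by symbol. The rule uses no measured value, but the 10 genes were picked with earlier results of these data known. Of the 10, 9 are described among the 16116 genes of that table and 7 had enough reads to be tested among 12702 genes. CDH11 is not analysed here. The gene IDs and chromosomes are 999 and 16 for CDH1, 1000 and 18 for CDH2, 1004 and 5 for CDH6, 6615 and 20 for SNAI1, and 6591 and 8 for SNAI2. They are 6935 and 10 for ZEB1, 9839 and 2 for ZEB2, 7291 and 7 for TWIST1, and 7431 and 10 for VIM.

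In an epithelium that undergoes EMT, E-cadherin (CDH1) is lost and N-cadherin (CDH2) is gained, a change often called the cadherin switch. SNAI, ZEB and TWIST factors repress CDH1, and SNAI and ZEB proteins bind E-box sequences near its start. The renal proximal tubule is unusual among epithelia in relying on CDH2 and CDH6 (K-cadherin) for much of its adhesion.

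The study compared 3 libraries of wild-type (WT) HK-2 cells with 3 libraries of knockout (KO) HK-2 cells labelled FAM134B-KO. FAM134B is the protein of RETREG1, a receptor for the autophagy of endoplasmic reticulum. No drug, dose or time is given for either group. The series title and sample labels name FAM134B, whereas its design text names TAX1BP1, so both genes were checked. RETREG1 had 72 to 80 reads per WT library and 27 to 33 per KO library (log2 fold change -1.33, SE 0.18, edgeR adjusted p = 5.31e-07), and TAX1BP1 had 2542 to 2782 and 2377 to 2684 (adjusted p = 0.533, edgeR). The design text calls the 3 samples of a group biological repeats, but nothing says that they came from separate cultures or whether the KO cells are 1 clone. The p-values therefore measure the spread among 3 samples a group, and part of that spread may be technical. In bulk RNA, fewer cells of a type and less RNA per cell cannot be told apart.

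Libraries held 16796964 to 17127468 estimated reads. Levels are given as CPM (a gene's reads relative to its library's total, scaled by TMM) for differences between groups. For levels of different genes they are given as deposited TPM, which is also relative to transcript length. Tests are edgeR's quasi-likelihood test over all 12702 genes with Benjamini-Hochberg adjustment, and a gene is called changed at an adjusted p under 0.05. In this comparison 36.8% of all tested genes were called, 18.7% higher and 18.1% lower in KO. Renal and simple-epithelial markers were present, with PAX8 at 458 CPM, KRT18 at 337 CPM and EPCAM at 97.5 CPM in WT. Markers of the differentiated proximal tubule were mixed. In WT, LRP2, CUBN, AQP1, ANPEP and SLC34A1 were near 0, between 0.0196 and 0.333 CPM. SLC5A2 was also low there (mean 0.978 CPM), whereas GGT1 was abundant (mean 221 CPM). The renal marker PAX2, unlike PAX8, was near 0 in WT (mean 0.0587 CPM). Of 5 fibroblast markers, COL1A1 fell from 24.0 ± 3.20 to 17.9 ± 1.27 CPM, while COL1A2, COL3A1, PDGFRA and PDGFRB were at or below 0.195 CPM. The 5 summed to 6.76 to 8.68 TPM in WT and 5.53 to 6.10 TPM in KO. Of 4 leukocyte markers CD68 was at 22.8 and 23.8 CPM and PTPRC was at 0 in WT, with sums of 27.8 to 32.9 TPM in WT and 30.4 to 31.9 TPM in KO. The 3 endothelial markers (PECAM1, TEK, CLDN5) summed to at most 0.62 TPM. The part of other cell types in the results below was not tested.

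Of the 7 tested members, 4 fell in KO and 0 rose. The 4 were CDH6, CDH2, ZEB2 and VIM, and the 3 not called were SNAI1, ZEB1 and TWIST1. That is 4 of 7 lower, against 18.1% of all tested genes. The median log2 fold change of the 7 was -0.26, against 0.00 (-0.000587) over all tested genes. CPM values of WT and KO did not overlap for 5 of the 7 (the 4 called genes and ZEB1), against 46.3% of all tested genes. A single gene's exact permutation test cannot go below p = 0.1 with 3 libraries against 3, two-sided, and each of these 5 gave 0.1.

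**Figure D1:**
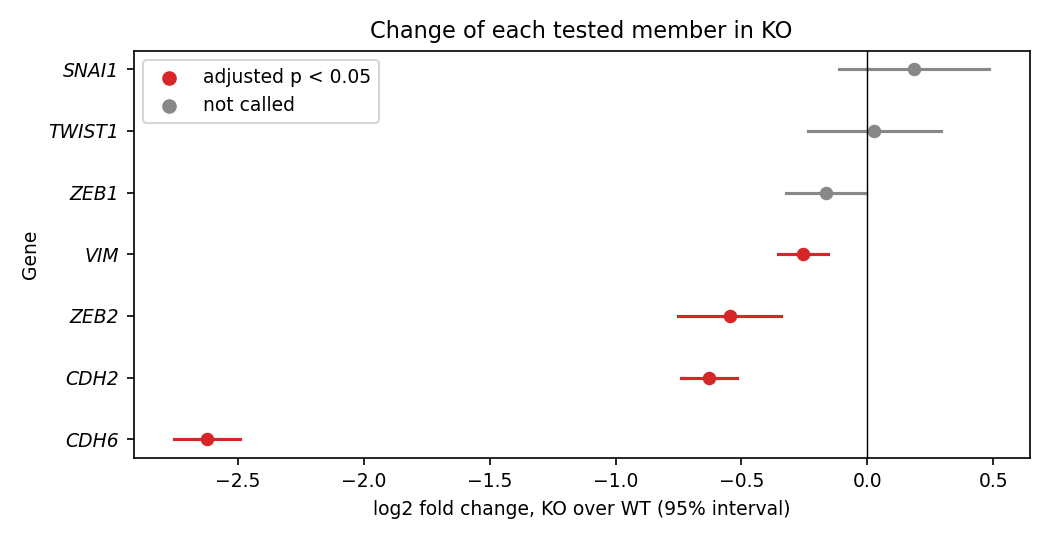
Log2 fold change (KO over WT, x axis) of the 7 tested genes (y axis), with points for edgeR estimates and lines for 95% intervals, red where the adjusted p was under 0.05. CDH6 lies at -2.62, CDH2, ZEB2 and VIM lie between -0.63 and -0.26, and the intervals of SNAI1 and TWIST1 include 0.

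In WT, the TPM levels ran from VIM (1408 ± 57.2) through CDH2 (73.0 ± 5.03), CDH6 (46.5 ± 0.911), ZEB1 (9.40 ± 0.828), TWIST1 (7.78 ± 0.756) and SNAI1 (6.27 ± 1.21) to ZEB2 (2.27 ± 0.0929; SD, n = 3 each). Neighbours in that order did not overlap between libraries except TWIST1 and SNAI1. VIM lay at percentile 99.3 to 99.4 of listed genes in each library. In KO the order was the same, but CDH6 (8.32 ± 0.842 TPM) now overlapped ZEB1 (8.18 ± 0.577 TPM), TWIST1 (7.77 ± 0.235 TPM) and SNAI1 (6.99 ± 0.390 TPM).

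**Figure D2:**
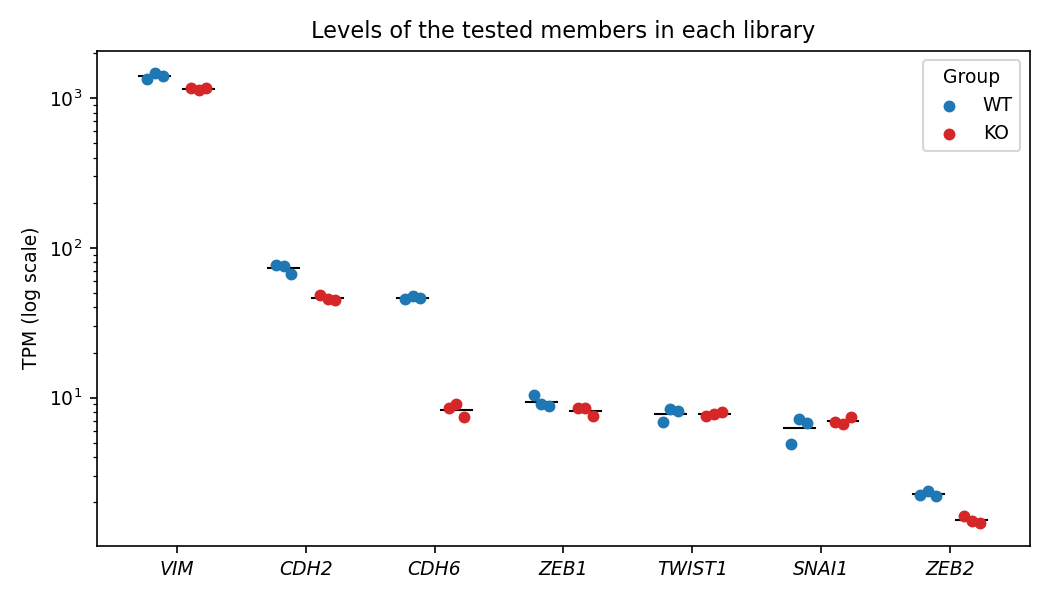
TPM of the 7 tested genes (y axis, log scale) in each library, WT in blue and KO in red, with black lines at group means (n = 3). CDH6 moves from 45.6 to 47.4 TPM in WT to 7.39 to 9.03 TPM in KO. CDH1 and SNAI2, at 0 in some libraries, are not drawn.

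CDH1, which encodes E-cadherin, was barely detected in either group. Its reads numbered 1, 0 and 1 in WT replicates 1 to 3 and 2, 1 and 0 in KO replicates 1 to 3. The groups overlapped, and no library passed 3 reads, the floor taken here, which equals 0.175 to 0.179 CPM. CDH1 therefore did not enter the test, and a difference was not detectable at this depth. All its reads were assigned to 1 RefSeq model, NM_001317184.

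CDH2, which encodes N-cadherin, fell in KO. Its level was 153, 146 and 139 CPM in WT and 96.9, 94.5 and 92.1 CPM in KO. Every KO library lay below every WT library, and the lowest WT library stood well above the highest KO library. KO cells held 64.7% of the WT level, which is -0.63 on the log2 scale (SE 0.054; 95% interval -0.74 to -0.52; edgeR adjusted p = 1.80e-10). Among all tested genes 9.72% had a larger absolute log2 fold change.

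CDH6, which encodes K-cadherin, a cadherin of the developing proximal tubule, fell the most of the 7. Its level was 144, 152 and 147 CPM in WT and 24.4, 25.7 and 21.8 CPM in KO. The 2 groups stood far apart and each was tight. The level was 6.15-fold lower in KO, or -2.62 on the log2 scale (SE 0.064; 95% interval -2.75 to -2.49; edgeR adjusted p = 6.28e-22). By p-value CDH6 ranked 2 of 12702 genes, and 1.06% of genes had a larger absolute log2 fold change.

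Over CDH1, CDH2, CDH6 and 12 other CDH genes with a value, the summed level was 200 ± 8.65 TPM in WT and 127 ± 3.58 TPM in KO. CDH2 held a like share of that sum, 36.4 ± 1.60% in WT and 36.6 ± 2.11% in KO. The share of CDH6 was 23.2 ± 0.861% in WT and 6.57 ± 0.590% in KO. The TPM ratio of CDH2 to CDH6 was 1.57 ± 0.116 in WT and 5.60 ± 0.514 in KO. All these values are SD over n = 3 libraries, and they are descriptions with no test.

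**Figure D3:**
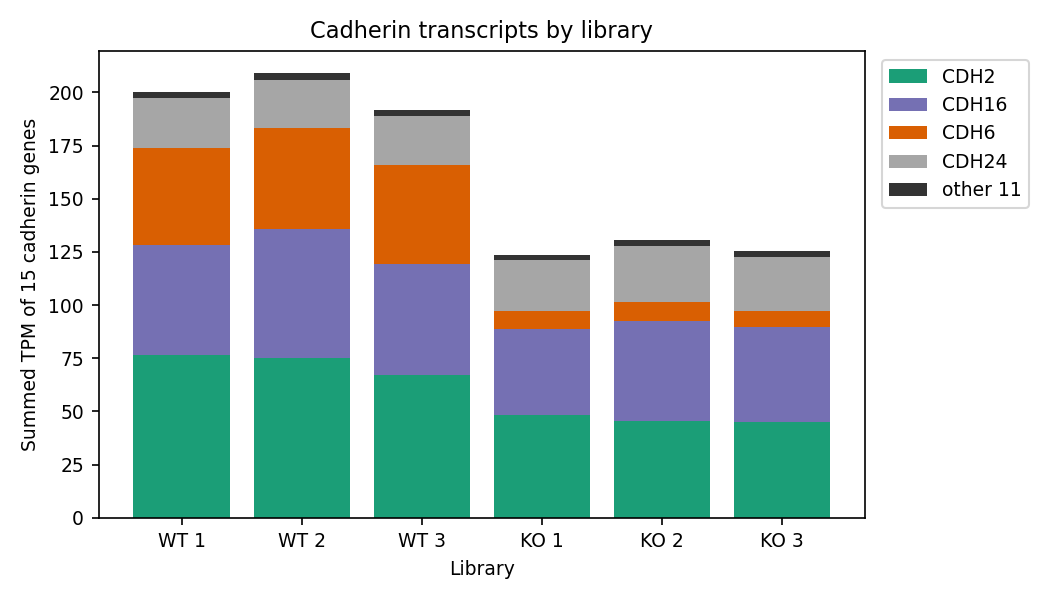
Summed TPM (y axis) of 15 cadherin genes in each of the 6 libraries (x axis), split into CDH2, CDH16, CDH6, CDH24 and the other 11. The bars reach 192 to 209 TPM in WT and 124 to 131 TPM in KO, and the CDH6 segment narrows from at least 45.6 TPM in WT to at most 9.03 TPM in KO.

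Of 18 other CDH genes considered, 12 had a value and 4 were tested. CDH16, the kidney-specific Ksp-cadherin, had 70.9, 81.5 and 73.7 CPM in WT libraries against 55.4, 66.5 and 64.6 CPM in KO. It fell by 0.28 on the log2 scale (SE 0.067, edgeR adjusted p = 0.00163), and its groups did not overlap. CDH24 had 40.0 ± 1.45 CPM in WT and 44.3 ± 2.96 CPM in KO (adjusted p = 0.0823 in edgeR), and without KO replicate 1 it passed as higher (log2 fold change 0.20, adjusted p = 0.0136). CDH4 and CDH26 were not called either (log2 fold changes -0.07 and 0.04). CDH3 (P-cadherin) and CDH13 (T-cadherin) had 0 or 1 read in each group.

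At the transcript level 2.13% of 44030 tested models were called, 1.14% higher and 0.990% lower. Of 59 models of the 9 genes, 25 were tested, 4 fell and 0 rose, with 6 at an unadjusted p under 0.05. NM_001792 carried 98.1% of CDH2 reads in WT and 97.2% in KO and fell by 0.65 on the log2 scale (SE 0.057, adjusted p = 0.00819, edgeR). The VIM model XM_006717500 carried 99.9% of the gene's reads in both groups and fell by 0.27 on the log2 scale (SE 0.037, edgeR adjusted p = 0.0310).

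CDH6 had 4 models. NM_004932 had 1499, 1715 and 1489 reads in WT and 208, 188 and 170 in KO. It fell by 3.05 on the log2 scale (SE 0.11, adjusted p = 9.12e-04 in edgeR), and its share of CDH6 reads was 62.5% in WT and 46.8% in KO. NM_001362435 had 263, 183 and 288 reads in WT against 69.8, 65.7 and 49.8 in KO, and fell by 1.97 on the log2 scale (SE 0.25, edgeR adjusted p = 0.0234). XM_017008910, whose WT reads ranged from 177 to 703, was not called (-2.00 on the log2 scale, edgeR adjusted p = 0.174). XM_011513921 had reads in 2 WT libraries (512 and 86.1) and 1 KO library (85.4). The reads of overlapping models are split by estimation, and the difference in share between models was not tested. NM_004932 was called under each omission of 1 library, and NM_001792 of CDH2 under each except that of KO replicate 2. NM_001362435 was called without WT replicate 2 and in no other omission, and the VIM model in none. XM_017008910 was called without WT replicate 1 (-2.41 on the log2 scale, edgeR adjusted p = 0.0442). Leaving out WT replicate 3, KO replicate 1 or KO replicate 3 left 2 models called, and leaving out KO replicate 2 left 1.

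**Figure D4:**
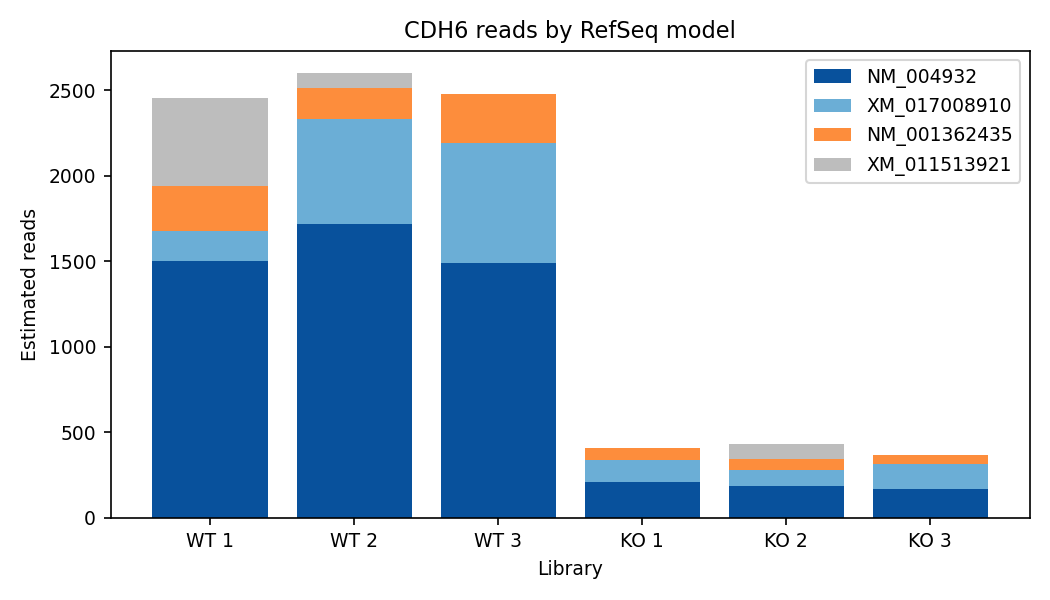
Estimated CDH6 reads (y axis) in each of the 6 libraries (x axis), stacked by RefSeq model. Total bars are 2451 to 2600 reads in WT and 367 to 432 in KO, and NM_004932 (dark blue) is the largest segment in every library.

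In RefSeq gene order, RETREG1 itself is the third tested gene to one side of CDH6 on chromosome 5. This order skips untested genes and gives no distance in bases, and the part of position in the fall of CDH6 was not tested. Of the 10 tested genes nearest to CDH6, 5 on each side, 4 fell and 1 rose. The 4 were RETREG1, ZNF622 (log2 fold change -0.28), MYO10 (-0.83) and PDZD2 (-0.97), and BASP1, the nearest on the RETREG1 side, rose by 0.17. DROSHA, the nearest on the other side, had -0.08 (adjusted p = 0.322 in edgeR). The median over these 10 was -0.13. For CDH2 the 10 neighbours had a median of 0.16, with 4 higher and 0 lower. The nearest on one side, CHST9, had a log2 fold change of 8.90 (edgeR adjusted p = 1.68e-12). The nearest on the other, DSC2, had 0.16 (edgeR adjusted p = 0.0721). Over all tested genes 18.7% were called higher and 18.1% lower. No tested member lies in the stretches of chromosomes 4 and 6 that were raised in KO in an earlier look at these data. Those stretches held 151 and 354 tested genes here, with medians of 0.52 and 0.53 on the log2 scale.

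ZEB2, a zinc-finger E-box repressor of epithelial genes, fell in KO. Its level was 10.9, 11.2 and 11.1 CPM in WT and 7.81, 7.49 and 7.42 CPM in KO. Replicates of each group lay close together and the groups were clearly separate. KO held 68.4% of the WT level, -0.55 on the log2 scale (SE 0.10; 95% interval -0.75 to -0.34; edgeR adjusted p = 6.89e-05). With limma the estimate was -0.29 on the log2(FPKM + 1) scale and -0.38 on the log2(TPM + 1) scale, where the pseudocount shrinks the change of a gene at so low a level, and ZEB2 was called on both. Its main model NM_014795, at -0.68 on the log2 scale, was not called at the transcript level (edgeR adjusted p = 0.0866).

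ZEB1, the closest relative of ZEB2 and a repressor of CDH1, was not called. Its level was 32.2, 27.4 and 27.8 CPM in WT and 26.5, 27.1 and 24.5 CPM in KO. The groups did not overlap, but WT replicate 2 and KO replicate 2 differed by little. Its estimate was -0.16 on the log2 scale (SE 0.077; 95% interval -0.32 to -0.0050; edgeR adjusted p = 0.0996). Before adjustment the edgeR p was 0.0436. Without WT replicate 1 the estimate was -0.086 (edgeR adjusted p = 0.463). The TPM ratio of ZEB1 to ZEB2 was 4.14 ± 0.436 in WT and 5.40 ± 0.254 in KO (SD, n = 3 each, no test). ZEB1 reads were spread over 43 models, of which 13 were tested and 0 were called (0 at an unadjusted p under 0.05, edgeR).

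SNAI1, the Snail repressor of CDH1, was low and was not called. Its level was 3.70, 5.36 and 5.23 CPM in WT and 5.18, 5.17 and 5.88 CPM in KO. The groups overlapped, and WT replicate 1 was the lowest of the 6. The estimate was 0.18 on the log2 scale (SE 0.15; 95% interval -0.11 to 0.48; edgeR adjusted p = 0.345). It was 0.032 without WT replicate 1 and 0.28 without WT replicate 2. SNAI2, which encodes Slug, had 2 reads over all WT libraries and 0 over all KO libraries, under the floor of 3 reads in each library. No fold is given for it.

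TWIST1, a basic helix-loop-helix factor of mesenchymal cells, had 84, 101 and 100 reads in the WT samples and 90, 96 and 101 in the KO samples. The groups overlapped, and WT replicate 1 was the lowest of the 6. On the log2 scale the estimate was 0.03 (SE 0.13; 95% interval -0.24 to 0.29; edgeR adjusted p = 0.893), and its sign turned when WT replicate 1 or KO replicate 3 was left out (-0.055 and -0.012).

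VIM fell slightly in KO while remaining one of the most abundant transcripts. Its level was 1143, 1223 and 1226 CPM in WT and 981, 994 and 1034 CPM in KO. All KO libraries lay below all WT libraries. KO held 83.8% of the WT level, -0.26 on the log2 scale (SE 0.048; 95% interval -0.35 to -0.16; edgeR adjusted p = 9.06e-05). Among all tested genes 30.4% had a larger absolute log2 fold change.

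The window upstream of VIM is printed because VIM fell and its RefSeq window (GRCh38.p14) overlapped 0 annotated exons of its strand. Exon overlap was computed for VIM alone, and not for CDH2 and ZEB2, which fell further and also have windows. It covers the 250 bases before the RefSeq start, chr10:17227991-17228240 on the plus strand. Capitals mark the GC box found.

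VIM: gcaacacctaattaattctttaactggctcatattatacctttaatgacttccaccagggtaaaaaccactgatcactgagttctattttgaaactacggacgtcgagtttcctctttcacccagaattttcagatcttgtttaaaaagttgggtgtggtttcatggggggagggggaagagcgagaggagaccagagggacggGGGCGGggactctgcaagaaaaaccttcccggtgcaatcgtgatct

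Motifs were searched on both strands. The E-box was CAGGTG, read as CACCTG on the opposite strand. The GC box was GGGCGG, read there as CCGCCC. The third was the CCAAT box, read there as ATTGG, and none of the motifs contains another. Of 35116 windows of 250 bases in the same RefSeq table, 17.5% held the E-box, 42.6% the GC box and 32.0% the CCAAT box. The VIM window held 1 GC box, 46 bases before the start, and 0 of the other 2. Of 9 VIM starts in GENCODE release 29, 1 lies within 50 bases of this one, so the window belongs to 1 of several starts. Whether it precedes the start of XM_006717500, the model that carried most VIM reads, was not checked. RefSeq windows matched 4 members. CDH2 (2 windows) held 0 E-boxes, 1 GC box and 2 CCAAT boxes, ZEB2 (1 window) held 0 of any, and ZEB1 (7 windows) held 3 E-boxes in 2 windows, 7 GC boxes in 5 windows and 0 CCAAT boxes. A match describes letters and is not a binding site.

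By the Euclidean distance between log2 CPM profiles over the 6 libraries, each taken relative to its WT mean, the genes nearest to CDH6 were MGAT4C, GPC6 and SPINT2, of 9791 candidates at 10 CPM or more. MGAT4C, of the N-glycan branching enzyme family, had 49.6 ± 1.42 CPM in WT against 7.36 ± 1.13 CPM in KO. GPC6, a glypican, had 38.8 ± 1.44 and 5.12 ± 0.574 CPM. The genes nearest to CDH2 were SLC35G2, GALNT7 and ITGA1, with log2 fold changes of -0.63, -0.61 and -0.65. Distances were 0.231 to 0.299 for CDH6 and 0.0552 to 0.0748 for CDH2. Because the 2 groups differ, this measure mainly ranks genes by a like difference between groups.

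Catenins link cadherin tails to actin. Of 19 catenin and adherens junction genes, 14 were tested, 2 rose and 5 fell, with a median log2 fold change of -0.08. NECTIN1 and NECTIN3, nectins that adhere beside cadherins, fell by 0.67 and 0.31 on the log2 scale (adjusted p = 6.21e-07 and 4.90e-05, edgeR). CTNNAL1, alpha-catulin, rose from 182 ± 7.07 to 221 ± 16.3 CPM, and CTNNBIP1, an inhibitor of beta-catenin, rose by 0.33 on the log2 scale. The core catenins were looked up after their values were seen. CTNND1, the p120 catenin that holds cadherins at the membrane, fell by 0.25 on the log2 scale (SE 0.051, edgeR adjusted p = 2.41e-04), from 246 ± 11.7 to 207 ± 5.77 CPM. CTNNB1 (317 ± 6.21 and 309 ± 6.30 CPM) and CTNNA1 (594 ± 3.44 and 558 ± 15.3 CPM) were not called (adjusted p = 0.564 and 0.135, edgeR).

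Of 14 desmosomal genes, 8 were tested, 3 rose and 1 fell, with a median of 0.12. PERP, a desmosomal membrane protein, fell from 34.2 ± 1.53 to 19.6 ± 1.70 CPM. DSP, encoding desmoplakin, rose from 368 ± 14.8 to 466 ± 11.4 CPM, and PKP2, encoding plakophilin 2, rose by 0.28 on the log2 scale. DSP lies in the raised stretch of chromosome 6, whose median was 0.53, and its own log2 fold change was 0.34. The part of the stretch in that rise was not tested.

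Of 15 genes of cadherin shedding, endocytosis and glycosylation, all were tested, 5 rose and 3 fell, with a median of 0.10. ADAM10, the protease that sheds the extracellular part of E- and N-cadherin, had 280 ± 8.92 CPM in WT and 221 ± 12.7 CPM in KO (-0.34 on the log2 scale, SE 0.052) and was called lower. NCSTN, encoding the gamma-secretase subunit nicastrin, rose by 0.28 on the log2 scale. MGAT3, which adds bisecting N-acetylglucosamine, rose from 0.510 ± 0.0944 to 1.57 ± 0.328 CPM. It had 9, 7 and 10 reads in WT and 29, 20 and 30 in KO, so it passed the filter only through KO. MGAT5 and RAB11A fell by 0.14 each (adjusted p = 0.0383 and 0.0412 in edgeR), and neither was called with DESeq2. Over the omissions of a single library, MGAT5 stayed called only without WT replicate 2, and RAB11A only without KO replicate 1. Without KO replicate 3, 5 genes were called in place of 8, and MGAT5, RAB11A and APH1A were lost.

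Of 20 other EMT-related transcription factors, 13 were tested, 2 rose and 3 fell, with a median of -0.16. ID2 and ID3, which dimerise with basic helix-loop-helix factors and block their binding to DNA, fell by 0.83 and 0.44 on the log2 scale (edgeR adjusted p = 3.08e-11 and 2.11e-06). SOX4 and FOXC1 rose by 0.19 and 0.41 on the log2 scale, and both lie in the raised stretch of chromosome 6. With DESeq2, 3 of these genes were called in place of 5, and FOXC1 and ID1 were lost. In edgeR FOXC1 was not called without WT replicate 3 or KO replicate 2, and ID1 without WT replicate 2 or KO replicate 1. TCF3, which encodes the TWIST1 partner E47, was looked up after its value was seen and was not called (log2 fold change -0.05, adjusted p = 0.502, edgeR).

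Genes that mark or maintain the epithelial state moved in both directions. Of 17 epithelial transcription and splicing factors, 9 were tested, 5 rose and 1 fell, with a median of 0.56. ESRP1, an epithelial splicing regulator, had 5, 8 and 5 reads in WT against 89, 74 and 71 in KO, and rose by 3.69 on the log2 scale (SE 0.25, edgeR adjusted p = 2.60e-12). Every WT library was under 10 reads, the minimum count of the filter. ESRP1 therefore entered the test only through KO, and its fold rests on few WT reads. KLF4, a zinc-finger factor of epithelia, rose from 3.98 ± 0.277 to 8.90 ± 0.258 CPM. RBM47, a splicing factor, rose by 0.64 on the log2 scale and lies in the raised stretch of chromosome 4. KLF5 went the other way, falling from 10.4 ± 1.33 to 6.92 ± 1.41 CPM.

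Of 25 epithelial genes known as targets of ZEB or SNAI repression, 22 were tested, 8 rose and 8 fell, with a median log2 fold change of -0.04. CLDN4, a tight junction claudin, rose from 1.33 ± 0.145 to 7.83 ± 1.42 CPM. SPINT2, a protease inhibitor of epithelia, fell from 33.5 ± 2.55 to 5.16 ± 0.711 CPM. KRT19, a simple-epithelial keratin, had 45, 69 and 46 reads in WT and 1, 0 and 1 in KO, all under the floor of 3 reads, so no fold is given. EPCAM, an epithelial adhesion protein, rose from 97.5 ± 5.84 to 119 ± 0.841 CPM.

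Of 24 repressor partners and turnover factors of SNAI and ZEB proteins, 23 were tested, 4 rose and 0 fell, with a median of 0.03. The share that rose, 17.4%, was near the 18.7% of all tested genes called higher in KO. EHMT2, a histone methyltransferase, and CTBP1, a corepressor bound by ZEB proteins, rose by 0.70 and 0.63 on the log2 scale. They lie in the raised stretches of chromosomes 6 and 4, whose medians were 0.53 and 0.52, and the part of the stretches in these rises was not tested. LATS2, a Hippo kinase, rose by 0.20 and lies in neither.

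Around VIM, 12 intermediate filament and partner genes were considered. Of these 9 were tested, 1 rose and 2 fell, with a median of -0.01. SYNM, encoding synemin, which assembles with vimentin, had 34.9 ± 1.76 CPM in WT and 17.9 ± 0.536 CPM in KO (-0.96 on the log2 scale, SE 0.074) and was called lower. BAG3 fell by 0.32 on the log2 scale. DST rose by 0.16 (adjusted p = 0.0149, edgeR) and lies in the raised stretch of chromosome 6. Without WT replicate 2, WT replicate 3 or KO replicate 2, DST was not called.

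Among 30 mesenchymal genes of EMT panels, 25 were tested, 3 rose and 11 fell, with a median of -0.14. The share called was 56%, while over all tested genes 18.7% were called higher and 18.1% lower. Over the omissions of a single library 11 to 15 of the list were called. ITGB1, among the 11, stayed called only without KO replicate 1. ITGA5, also among them, was not called without WT replicate 2 or KO replicate 2. ITGB6, an integrin of injured epithelium, and FSTL1, a secreted glycoprotein, fell by 0.99 and 0.57 on the log2 scale. TNC, the matrix protein tenascin-C, went the other way, from 1.23 ± 0.144 to 8.76 ± 0.443 CPM (log2 fold change 2.82, SE 0.16). WNT5A and CCN1 rose by 1.08 and 0.16, and CCN1 was not called without WT replicate 2 (log2 fold change 0.13, edgeR adjusted p = 0.0540). Of 19 proximal tubule and renal epithelial markers, 10 were tested, 2 rose and 5 fell. The lists share genes. KRT8, KRT18, KRT19 and EPCAM are also among the ZEB and SNAI targets, and CDH16 is among the other CDH genes. KRT19, for which no fold is given, counts as a fall in both of its lists. KRT7 and KRT8, keratins of simple epithelia, fell by 0.96 and 0.66 on the log2 scale, and PAX8, a renal lineage factor, rose by 0.29. Over these 11 lists the share of tested genes called ran from 17.4% (repressor partners) to 72.7% (ZEB and SNAI targets), against 36.8% of all tested genes.

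**Figure D5:**
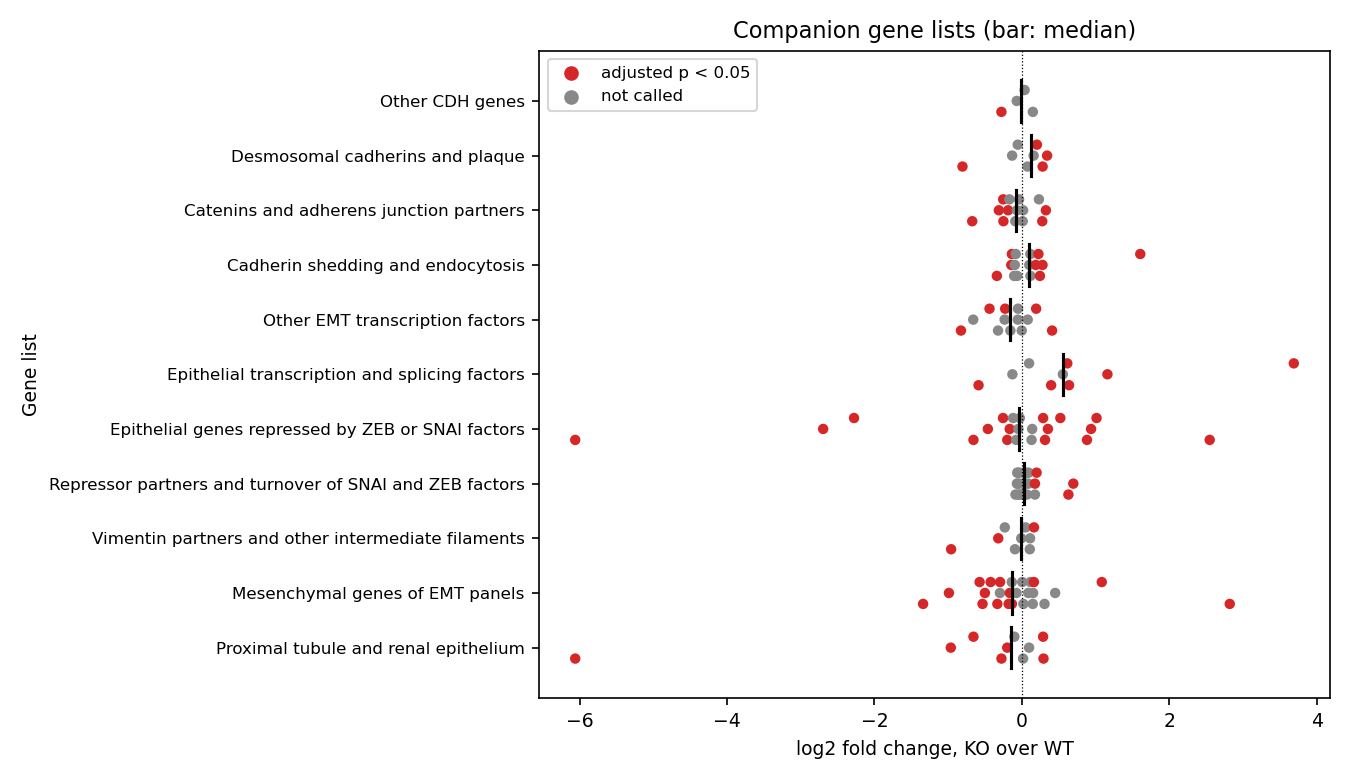
Log2 fold change (KO over WT, x axis) of the tested genes in 11 lists (y axis), red where the adjusted p was under 0.05 and grey otherwise, with a black bar at each list's median. Medians lie between -0.16 and 0.12 except for epithelial transcription and splicing factors at 0.56. The point farthest left in the lists of ZEB and SNAI targets and of renal markers is KRT19, whose KO libraries held 0 or 1 read, so its place is a fitted value and not a measured fold.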

How the data were processed

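RNA-seq of 3 WT and 3 KO libraries of HK-2 cells was analysed from the authors' gene and transcript tables. The submitters' processing notes name the aligner HISAT2 2.0.1, Cuffdiff 2.2.1, the trimmer cutadapt 1.9.1, FastQC 0.10.1 for quality, bcl2fastq 2.17.1.14 and the build GRCh37. Neither the counter nor the strand setting nor the library kit is stated in the labels. The deposited tables hold estimated counts of reads, TPM and FPKM per library. In the gene table between 13.0% and 14.0% of a library's values were fractional, and each value was rounded to a whole read. This share was not counted in the transcript table, whose values were rounded likewise. Genes were kept by filterByExpr (minimum count 10, minimum total 15), scaled by TMM and tested with edgeR 4.0.16 in R 4.3.3. The SE was derived from the F statistic of each gene. Alternatives used DESeq2 1.42.0 and limma 3.58.1 (deposited TPM and FPKM, log2 with pseudocount 1 or 0.1). The script was tested on simulated data. Replicates were compared by chi-square, and each pair differed by more than sampling noise (statistic per degree of freedom 2.02 to 6.03). Floors cover counting error only.

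The members and the gene lists were chosen with earlier results of these data known. The text names every member, the 3 called genes of each list with the smallest adjusted p, up to 2 that went against its direction, and the 3 nearest profiles of 2 members. Older symbols were matched through the RefSeq gene table, which gave gene order only.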

Additional observations from a re-analysis of the deposited data

How the results depend on the processing

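The calls of CDH6, CDH2, ZEB2 and VIM kept their direction and their side of the threshold in all 11 other settings (scaling, filter, DESeq2, limma on TPM or FPKM, replicate block, a threshold of 0.01) and in the 6 omissions of a library. Over the omissions the log2 fold change ran from -2.67 to -2.56 for CDH6, from -0.66 to -0.59 for CDH2, from -0.57 to -0.53 for ZEB2 and from -0.29 to -0.24 for VIM. The count of members called was 4 throughout, except 5 with a replicate block, where ZEB1 passed (log2 fold change -0.16, adjusted p = 0.0363 in edgeR; 0.0363 to 0.190 over the 11 settings). TWIST1 had values from -0.055 to 0.072 over the omissions, and its direction reversed without WT replicate 1 (-0.055) or KO replicate 3 (-0.012). The cause was not tested. SNAI1 was not called under any setting. Of the transcript models 4 were called, 2 with the replicate block (XM_006717500 of VIM and NM_001362435 of CDH6 were lost) and 1 to 3 over the omissions, where fewer samples enter. The replicate numbers were not taken to pair the libraries: same-numbered deviations correlated at 0.27, 0.03 and 0.20. WT replicates 1 and 3 correlated best with the KO replicate of the same number. WT replicate 2 correlated best with KO replicate 3 (0.07, against 0.03 with KO replicate 2). Over all genes the block raised the calls from 4679 to 5947. With it 2 other CDH genes were called in place of 1, and 6 vimentin partners in place of 3. Depth limits CDH1 and SNAI2, at 0 to 2 reads.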
